A study of Mus musculus with 18 samples.

Results

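The histone genes were examined in 18 mouse oocyte libraries, 3 in each of 6 groups. They were taken by gene symbol (H1f, H2ac, H2bc, H2bu, H3c, H4c and H4f genes with a number, *H2aj*, *H2ax*, the *H2az* genes and the *H3f3* genes). Symbols containing -ps were left out. The rule found 69 of the 28252 genes with TPM values (a unit corrected for gene length and library size), and all 69 were also among the 53715 genes with read counts. One of them, *H3f3aos*, is a non-coding RNA on the strand opposite *H3f3a*, so 68 are histone genes by symbol. Among these, *H2ac14* and *H3f3c* are annotated as pseudogenes but were kept in all counts of members. The family was selected on the counts of *H2ac13*, *H2ac11* and *H2aj*, which differed between groups in an earlier analysis of the same libraries. The values of these 3 genes are therefore given as a description, with no test.

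All oocytes came from F1 female mice of the cross C57Bl/6j x CBA/J. A laser was used to cut single oocytes of primordial and primary follicles from ovarian sections (laser capture microdissection, LCM). The *in vivo* group used non-cultured ovaries of mice aged 14 days, and the *in vitro* group used ovaries of mice aged 7 days that had been cultured for 7 days in α-MEM with 10% FBS. RNA from the caps was pooled within a stage. MII oocytes, which are mature eggs arrested in the second meiotic metaphase, came from superovulated adult mice (*in vivo*) or from follicles of cultured ovaries that were grown for a further 12 days and then given hCG (*in vitro*), with 10 oocytes in a library. The LCM libraries were made with a whole-transcriptome amplification and a capture kit, and the MII libraries by Smart-seq II, which copies RNA from the poly(A) tail. MII and LCM libraries thus differ in stage and in how they were made, which cannot be told apart, and they were compared by their values without a test. The labels do not say that libraries came from separate animals, so p-values measure the spread between these libraries only.

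Histones are the proteins around which DNA is wound. The core histones H2A, H2B, H3 and H4 form the nucleosome, and linker histone H1 binds the DNA between nucleosomes. Most of their genes are small, have no introns, sit in clusters and are used when DNA is copied. Their mRNAs end in a short stem-loop instead of a poly(A) tail, and the stem-loop binding protein SLBP controls their processing and translation. Replacement and variant histones such as those from *H3f3a*, *H3f3b* and *H2az1* have polyadenylated mRNAs and are made outside S phase as well. Oocytes hold stocks of histones for the early embryo, and *H1f8* encodes the oocyte-specific linker histone.

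By role, the members were 14 H2A, 14 H2B, 12 H3, 11 H4 and 5 linker H1 genes of the replication-dependent kind (56, called cluster genes here), 2 germ cell genes (*H2ac1* and *H2bc1*, known from the testis), 10 replacement and variant genes and the antisense RNA. Of the cluster and germ cell genes, 46 lay on chromosome 13 between positions 21715763 and 23934851 of GRCm38 and 10 on chromosome 3 between 96219865 and 96270132, while *H2bu2* on chromosome 11 and *H4f16* on chromosome 6 lay alone. The histone stem-loop was taken as a run of 16 bases. Some positions could vary, among them those at which the 3 forms given here differ. This run was searched in the annotated transcripts of every protein-coding gene. It stood in 28 of the 69 members, against 41 of 21901 protein-coding genes (0.187%), 28 of which are these members. The search found it in 7 H2A, 7 H2B, 5 H3, 6 H4 and 3 linker H1 genes and in 0 of the 10 replacement and variant genes. Many annotated models of cluster genes stop near the coding part, as that of *H2ac13* (393 bases) does, so a missing match says only that these letters are not in the model. Other models run well past the site, which lies at bases 705 to 720 of 1560 in *H1f2* and 351 to 366 of 820 in *H4c3*. A site is thus not always near the annotated end. The sites of 8 genes are shown because the ending of the mRNA is what sets cluster genes apart from polyadenylated histone genes; capitals mark the 16 bases of the stem-loop and lower case the 6 bases on each side, 5′ to 3′, from the GENCODE transcripts on GRCm38.
H1f2: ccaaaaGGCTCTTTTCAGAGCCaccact
H2ac4: aacaaaGGCTCTTTTCAGAGCCacccac
H2ac11: aacaaaGGCTCTTTTCAGAGCCacctaa
H2bc14: cacaaaGGCTCTTTTCAGAGCCactaag
H3c2: cccaaaGGCTCTTTTCAGAGCCacccac
H3c14: cacaaaGGCTCTTTTCAGAGCCaccaca
H4c1: accaaaGGCCCTTCTCAGGGCCgcccac
H4c3: acaaaaGGCCCTTTTCAGGGCCacccac
The core of the H1, H2A, H2B and H3 sites was the same run in 22 of 22 genes, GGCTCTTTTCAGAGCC. The H4 genes carried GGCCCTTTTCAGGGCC in 5 genes and GGCCCTTCTCAGGGCC in 1 gene, *H4c1*.

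Depth was 15149564 to 29205503 counts for the 12 LCM libraries and 7334817 to 9978830 counts for the 6 MII libraries. A gene was taken as detected above a floor of 3 counts, which was 0.103 to 0.198 CPM (counts relative to all counts of the library) for LCM and 0.301 to 0.409 CPM for MII. It covers counting error alone, as reads without molecular identifiers are not independent molecules. In the LCM libraries genes came and went between replicates. Of the members with over 1000 counts in some library of a group, 38.5% (primordial *in vivo*), 41.7% (primordial *in vitro*), 42.6% (primary *in vivo*) and 13.7% (primary *in vitro*) were at or under the floor in another library of the same group. The shares over all genes were 32.6%, 41.2%, 47.4% and 14.3%, and in the MII groups both were 0. Oocyte markers were present in every library, with a summed TPM of 329 to 2057 in the LCM and 6800 to 16058 in the MII libraries. Markers of granulosa cells summed to 282 to 2404 TPM for LCM and to 30.8 to 67.1 TPM for MII. Their median sum was 496 TPM in primordial *in vivo*, 459 in primordial *in vitro*, 563 in primary *in vivo* and 1048 in primary *in vitro* libraries. The primary *in vitro* range was 913 to 2239 TPM, which overlapped that of primary *in vivo* (506 to 2404 TPM). Markers of theca and stroma summed to 421 to 10815 TPM in the LCM and to at most 4.11 TPM in the MII libraries. Of these, the collagen genes *Col1a1* and *Col1a2* had 8266 to 466458 and 4755 to 96860 counts in the LCM libraries. The theca genes *Cyp17a1* and *Star* had at most 7 and 11 counts there. Blood and immune markers reached 1157 to 7503 TPM in the primary *in vivo* libraries and at most 175 TPM in the other LCM libraries. In primary *in vivo* libraries these were haemoglobin reads, with 42352, 7047 and 0 counts of *Hba-a1* and 0, 6607 and 4547 of *Hbb-bs*. The immune markers *Cd68* and *Ptprc* had 0, 3 and 0 counts and 0 counts there. The part of these cells in the histone values was not tested.

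By counts, the shares of histone genes overlapped between LCM and MII libraries, but the reads fell on different genes. Histone reads were 0.995% to 2.56% of an LCM library and 1.35% to 2.67% of an MII library. In the LCM libraries most of these reads fell on cluster genes, which held 0.839% to 2.26% of all counts, and replacement and variant genes held 0.118% to 0.405%. In the MII libraries cluster genes held 0.00169% to 0.00483% of the counts and replacement and variant genes 1.35% to 2.67%. Per length, cluster genes made up 4.28% to 11.6% of the TPM in the LCM libraries (median 7.43%) and 0.00385% to 0.0109% in the MII libraries (median 0.00641%). The ranges of the LCM and MII libraries lay far apart.

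**Figure D1:**
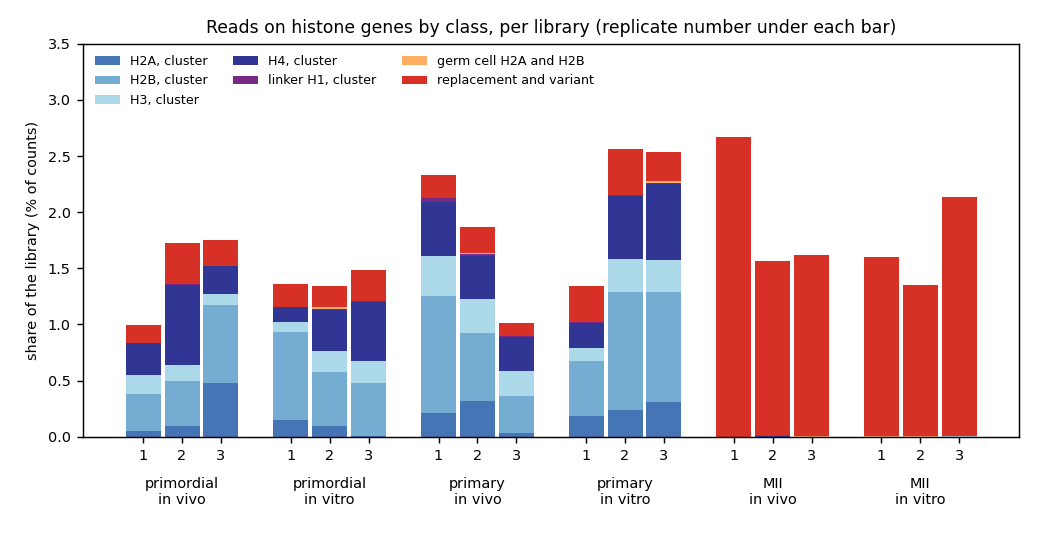
Share of each library's counts (y axis, %) on histone genes, stacked by class, for the 18 libraries in their 6 groups (x axis, replicate number under each bar). Blue classes (core histone cluster genes) fill most of each of the 12 LCM bars, and the red class (replacement and variant genes) fills 99.7% to 99.9% of each of the 6 MII bars.

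Among the cluster genes, H2B had the highest median share of the histone counts in the LCM libraries, 36.2% (23.2% to 57.7%). H4 genes took 9.45% to 41.5% (median 24.4%) and exceeded H2B in primordial *in vivo* replicate 2 (41.5% against 23.2%) and in primordial *in vitro* replicate 3 (35.1% against 31.8%). H2A genes took 0.227% to 27.6% (median 9.36%), H3 genes 6.00% to 22.0% (median 12.3%) and linker H1 genes 0.0296% to 1.42%. Replacement and variant genes took 8.71% to 23.6%. The groups overlapped in the total share. Cluster genes held 0.839% to 1.52% of the counts in primordial *in vivo*, 1.14% to 1.21% in primordial *in vitro*, 0.895% to 2.13% in primary *in vivo* and 1.02% to 2.26% in primary *in vitro* libraries.

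Which cluster gene led the histone reads changed from library to library. Over the 12 LCM libraries 10 different members took the lead, and a cluster gene led in 10 libraries. *H2bc6* led in primordial *in vitro* replicate 1 (36689 counts) and in primary *in vivo* replicates 1 and 2 (128558 and 28884 counts), and it had 4 counts in primary *in vivo* replicate 3. Of the 56 cluster genes, 45 had over 1000 counts in some LCM library, and 39 of these were at or under 3 counts in another. For 17 cluster genes, 1 library gave over 50% of their CPM summed over the LCM libraries. These include *H2ac14*, which had 2 counts in all LCM libraries together. Only 6 cluster genes (*H2bc4*, *H2bc18*, *H4c1*, *H4c3*, *H4c4* and *H4c8*) were above the floor in all 12 LCM libraries. The number of members above the floor was 46, 50 and 36 in primordial *in vivo*, 32, 42 and 45 in primordial *in vitro*, 41, 58 and 40 in primary *in vivo* and 57, 53 and 61 in primary *in vitro* libraries. All 3 primary *in vitro* libraries thus held more members than the 3 primordial *in vitro* libraries, and they also held more genes with a read (10565 to 13755 against 6147 to 9852).

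**Figure D2:**
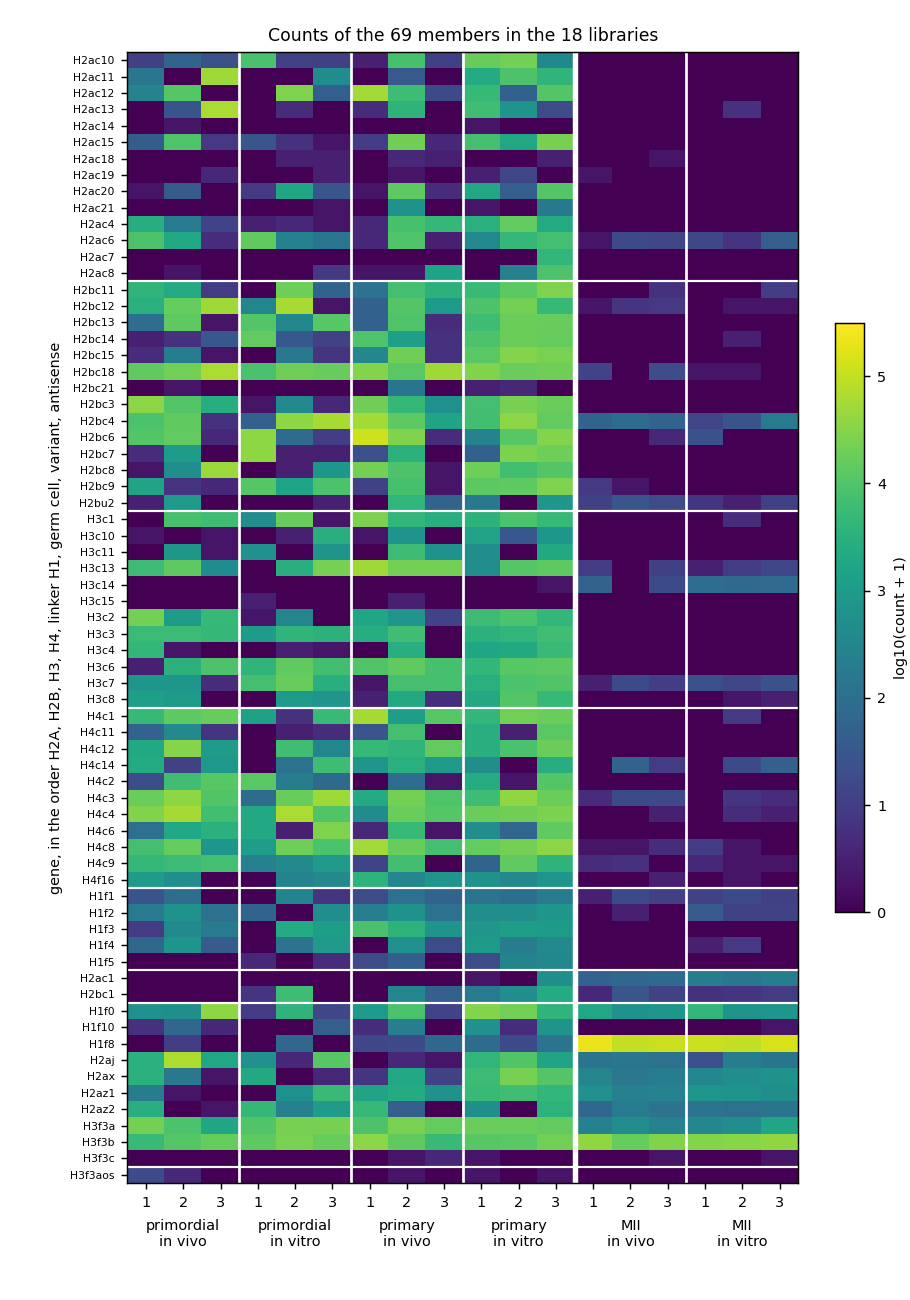
Counts of the 69 members (rows, by class) in the 18 libraries (columns, by group and replicate), coloured by log10(count + 1). Cluster genes switch between over 1000 counts and near 0 among LCM libraries of the same group, most of their rows are at or near 0 in the 6 MII columns, and the *H1f8* row is brightest there (96839 to 221156 counts).

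The 6 members with the highest median TPM over the LCM libraries were all cluster genes. *H2bc18*, an H2B gene at chr3:96269752-96270132, had the highest median, 6680 TPM, with a range of 4364 to 27263. Its counts were 14581, 20823 and 63464 in primordial *in vivo*, 8379, 20217 and 16764 in primordial *in vitro*, 29929, 12140 and 53176 in primary *in vivo* and 29047, 17747 and 19989 in primary *in vitro* libraries. No library was near the floor, and all groups overlapped. *H2bc18* overlaps a gene on the opposite strand, and the strand of the counting is not given, so its reads cannot be assigned with certainty. Next came *H4c8* (median 4755 TPM, 222 to 16594), *H3c13* (3244, 0 to 15178), *H2bc13* (2877, 0.36 to 6353), *H4c3* (2538, 23.0 to 9644) and *H4c1* (2526, 1.09 to 14990), whose ranges over the libraries overlap each other throughout. These 5 encode core histones H4, H3, H2B, H4 and H4. In the MII libraries the same 6 genes had medians of 0 to 4.63 TPM.

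The replacement H3 genes *H3f3a* and *H3f3b* were detected in all 18 libraries. *H3f3a* had a median of 699 TPM over the LCM libraries and 32.3 TPM over the MII libraries, and *H3f3b* had 680 and 2963 TPM. The counts of *H3f3b* were 5106, 11131 and 15609 in primordial *in vivo*, 13602, 24564 and 16777 in primordial *in vitro*, 34793, 14111 and 5333 in primary *in vivo* and 11710, 12395 and 21695 in primary *in vitro* libraries. The 2 genes had similar medians in the LCM libraries, while in each MII library the TPM of *H3f3b* was far above that of *H3f3a*. *H1f0*, a linker histone of slowly dividing cells, was also detected in all 18 libraries but ranged from 8 to 36759 counts in the LCM libraries. *H2ax*, the variant that is phosphorylated at DNA breaks, ranged from 0 to 23039 counts and *H2az1*, a variant of active and poised promoters, from 0 to 6488. *H2az2* ranged from 0 to 4898 counts. *H1f10*, another linker variant, reached at most 700 counts in LCM libraries and 1 count in MII libraries.

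*H2ac13*, an H2A cluster gene at chr13:21716422-21716814 (exonic over its whole annotated length of 393 bases), had 0, 26 and 63529 counts in primordial *in vivo* and 0, 4 and 0 counts in primordial *in vitro* libraries. It had 4, 3811 and 0 counts in primary *in vivo* and 6661, 703 and 17 counts in primary *in vitro* libraries. The groups overlapped at both stages of follicles except that all 3 primary *in vitro* values lay above all 3 primordial *in vitro* values. Of its CPM summed over the LCM libraries, 84.5% came from primordial *in vivo* replicate 3 alone. *H2ac11*, another H2A cluster gene at chr13:22042460-22042944, had 145, 0 and 53008 counts in primordial *in vivo* and 0, 0 and 473 counts in primordial *in vitro* libraries. It had 0, 33 and 0 counts in primary *in vivo* and 2422, 9245 and 3963 counts in primary *in vitro* libraries. Its primary *in vitro* libraries lay above both the primary *in vivo* and the primordial *in vitro* libraries. Of its summed LCM CPM, 75.6% came from the same primordial *in vivo* replicate 3. In the MII libraries *H2ac13* had 5 counts in 1 library and 0 in the other 5, and *H2ac11* had 0 in all 6.

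*H2aj*, an H2A variant gene at chr6:136808244-136810074 that lies outside the large clusters, had 3236, 65389 and 1925 counts in primordial *in vivo*, 595, 3 and 11928 in primordial *in vitro*, 0, 3 and 1 in primary *in vivo* and 4091, 10329 and 1596 in primary *in vitro* libraries. No primary *in vivo* library was above the floor, and the primary *in vivo* group lay below both the primordial *in vivo* and the primary *in vitro* group. In the MII libraries *H2aj* had 132, 141 and 110 counts (*in vivo*) and 21, 210 and 139 counts (*in vitro*), which overlap. *H2ac13* shared 88.4% and *H2ac11* 76.2% of their windows of 100 bases with transcripts of genes elsewhere, against 0% for *H2aj*. How the counting treated reads that map to several places is not given, so the counts of the 2 cluster genes are uncertain in a way that the count of *H2aj* is not. The median shared part was 64.5% over the 14 H2A cluster genes, 29.1% for H2B, 40.0% for H3, 18.2% for H4 and 0.792% for linker H1. All 3 genes also overlap an annotated gene on the opposite strand.

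**Figure D3:**
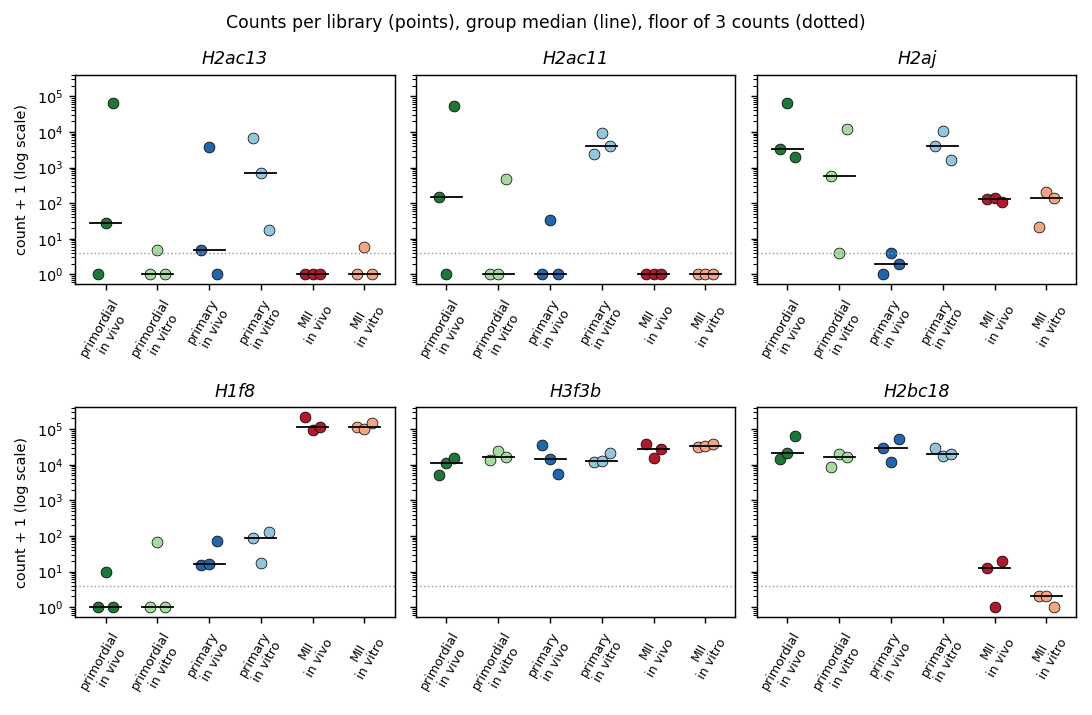
Counts + 1 (y axis, log scale) of 6 members in the 6 groups (x axis); points are libraries, black lines group medians, and the dotted line the floor of 3 counts. *H2ac13*, *H2ac11* and *H2aj* spread widely within LCM groups, *H3f3b* and *H2bc18* have at least 5106 and 8379 counts in every LCM library, and *H1f8* is at 0 to 125 counts there and at 96839 to 221156 in MII libraries.

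The windows of 250 bases upstream of the start of these 3 genes are shown because these are the genes on which the family was selected. They come from RefSeq on GRCm38.p6 and read 5′ to 3′ on the gene's strand, at chr13:21716162-21716411 (*H2ac13*, plus strand), chr13:22042950-22043199 (*H2ac11*, minus strand) and chr6:136807998-136808247 (*H2aj*, plus strand). Capitals mark CCAAT on either strand (ATTGG on the printed strand is the reverse).
H2ac13: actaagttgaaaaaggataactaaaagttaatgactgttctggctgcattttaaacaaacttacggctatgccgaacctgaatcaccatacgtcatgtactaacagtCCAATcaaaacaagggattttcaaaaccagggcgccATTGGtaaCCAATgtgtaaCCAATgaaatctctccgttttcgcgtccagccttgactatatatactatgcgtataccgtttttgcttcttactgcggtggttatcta
H2ac11: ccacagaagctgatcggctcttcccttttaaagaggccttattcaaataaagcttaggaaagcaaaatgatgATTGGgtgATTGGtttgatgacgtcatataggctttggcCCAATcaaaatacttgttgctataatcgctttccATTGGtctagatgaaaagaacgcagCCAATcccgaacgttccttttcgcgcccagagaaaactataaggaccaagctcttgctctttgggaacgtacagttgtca
H2aj: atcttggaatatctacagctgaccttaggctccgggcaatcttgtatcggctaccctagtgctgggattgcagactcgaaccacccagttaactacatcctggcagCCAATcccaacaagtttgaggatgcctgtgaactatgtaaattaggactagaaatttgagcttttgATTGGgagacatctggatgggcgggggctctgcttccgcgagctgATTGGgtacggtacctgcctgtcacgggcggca
The windows hold 4, 5 and 3 such matches and no TATAAA or ATTTGCAT. Of the 69 members, 61 had a window in the table, and these were compared with all 32851 windows of the same length. CCAAT stood in 80.3% of the members and 33.8% of all windows, including 13 of 13 H2A, 12 of 12 H2B and 5 of 5 linker H1 cluster genes but 3 of 10 H4 genes. TATAAA stood in 42.6% of the members against 12.4% of all windows. The octamer ATTTGCAT stood in 21.3% against 1.60%, and it was found in 5 of 13 H2A and 5 of 12 H2B genes and in 0 of the H3, H4 and linker H1 cluster genes. Some H2A and H2B genes stand head to head, such as *H2ac11* (minus strand, up to 22042944) and *H2bc11* (plus strand, from 22043214). Windows of such pairs can hold the same bases, and a match on either strand then counts for both genes. The shares of H2A and H2B genes are therefore not independent. A match is a run of letters and not evidence of binding.

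The question whether growth in culture changed histone mRNAs was tested over all genes with edgeR's quasi-likelihood test, with calls made at an adjusted p (Benjamini-Hochberg) under 0.05 together with a change of at least 2-fold. At the primordial stage 0.0326% of 15317 genes were called between *in vitro* and *in vivo*. Of the 66 members other than *H2ac13*, *H2ac11* and *H2aj*, 62 were tested and 0 were called. At an unadjusted p under 0.05 stood 15 of the 62 members (24.2%), against 11.7% of all genes. DESeq2, which gave an adjusted p to 53 of them, called 7, against 9.30% of all genes with an adjusted p there. All *in vitro* libraries were above all *in vivo* libraries for 1 of the 62 members and below them for 6, or 11.3% together, against 2.04% and 4.55% of all genes. Counts of this kind compare CPM scaled by TMM. Among the 62 members the smallest p were those of *H2bc14* and *H2bc3*, both H2B genes.

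*H2bc3* had 35310, 10833 and 2730 counts in primordial *in vivo* and 1, 436 and 3 counts in primordial *in vitro* libraries. All *in vivo* values were above all *in vitro* values. The normalized level was 686 ± 728 CPM *in vivo* and 5.45 ± 9.24 CPM *in vitro* (SD, n = 3 each). The log2 fold change was -6.97 with an SE of 2.15, and edgeR's adjusted p was 0.359. *H2bc14* had 2, 5 and 30 counts *in vivo* and 14817, 32 and 11 *in vitro*, so the groups overlapped and 99.7% of the level came from 1 library. Its log2 fold change was 9.18 with an SE of 2.67 (edgeR's adjusted p = 0.359) and went down to 0.49 without primordial *in vitro* replicate 1. *H2ac4*, an H2A gene, *H3c2* and *H3c3*, H3 genes, and *H4c9* and *H4c11*, H4 genes, were also lower in all *in vitro* libraries, while *H3c7*, an H3 gene, was higher; the 5 names besides *H2ac4* were chosen after their values were seen.

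At the primary stage 0 of 15317 genes (0%) and 0 of the 62 members were called by edgeR, 3 members (4.84%) were at an unadjusted p under 0.05 against 9.66% of all genes. DESeq2 called 0 of the 53 members with an adjusted p, against 2.86% of all genes. All *in vitro* libraries were above all *in vivo* libraries for 4 members and below them for 1 (8.06% together), against 8.74% and 1.25% of all genes. *H2ax* was among them. It had 6, 1933 and 11 counts *in vivo* and 5984, 23039 and 10636 *in vitro*, a log2 difference of 4.27 with an SE of 2.47 (edgeR's adjusted p = 0.565). *H2az1* had 1664, 2405 and 663 counts *in vivo* and 5007, 6488 and 4283 *in vitro*, a log2 difference of 1.33 with an SE of 2.52 (edgeR's adjusted p = 1). *H3c13* was the one member lower in all *in vitro* libraries, with 51490, 21936 and 22298 counts *in vivo* and 514, 11211 and 13534 *in vitro* (log2 fold change -2.47, SE 1.58, edgeR's adjusted p = 0.606). As it shared 77.1% of its windows of 100 bases with other genes, its counts are uncertain. *H2ac7*, an H2A gene, had the smallest p of the 62 members, but its reads came from 1 library: 4273 counts in primary *in vitro* replicate 3 and 0 in the other 11 LCM libraries.

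Between the stages *in vivo*, 0.0522% of 15317 genes and 0 of the 62 members were called by edgeR. An unadjusted p under 0.05 was reached by 8 members (12.9%) against 11.2% of all genes. DESeq2 called 6 of 53, against 6.42% of all genes. *H2bc14* had 9519, 1284 and 5 counts in primary and 2, 5 and 30 in primordial *in vivo* libraries, which overlap (log2 fold change 8.36, SE 2.58, edgeR's adjusted p = 0.380). All primary libraries were above all primordial libraries for 5 members and below them for 0 (8.06% together), against 2.36% and 4.02% of all genes. *H2ac8* was among the 5 with 1, 1 and 1545 counts in primary and 0, 1 and 0 in primordial libraries, partly under the floor. With CPM by library total or with TPM, 5 were again above and 0 below, with *H3c6* in place of *H2ac8*. Under each scaling *H1f8* was among the 5. It had 0, 9 and 0 counts in primordial and 14, 15 and 70 in primary libraries (log2 fold change 3.89, SE 3.29, edgeR's adjusted p = 0.675), a low level beside that of MII oocytes.

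Between the stages *in vitro*, 0 of 15317 genes (0%) and 0 of the 62 members were called by edgeR. Here 12 members (19.4%) were at an unadjusted p under 0.05, against 10.9% of all genes. DESeq2 called 6 of 53, against 5.32% of all genes. All primary libraries were above all primordial libraries for 10 members and below them for 1 (17.7% together), against 9.87% and 1.34% of all genes. With CPM by library total or with TPM, 12 were above and 0 below. *H2bc15*, an H2B gene, had 0, 155 and 6 counts in primordial and 12364, 29626 and 24358 in primary *in vitro* libraries. That is 2.01 ± 3.23 CPM against 812 ± 441 CPM (SD, n = 3 each), a log2 fold change of 8.65 with an SE of 2.60 (edgeR's adjusted p = 0.384). *H2ac4* had 2, 3 and 1 counts in primordial and 3115, 15407 and 2279 in primary *in vitro* libraries, at least 1774-fold higher against the floor of 3 counts in each primordial library (edgeR's adjusted p = 0.384). *H2bc3* had 1, 436 and 3 counts in primordial and 7217, 23819 and 18370 in primary libraries (log2 fold change 6.81, SE 2.13, edgeR's adjusted p = 0.384). In edgeR's test of whether the effect of culture differed between the stages, 0 of the 62 members were called, against 0.104% of all genes, and 10 members (16.1%) were at an unadjusted p under 0.05, against 11.5% of all genes. DESeq2 called 1 of 53 there, against 6.24% of all genes.

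**Figure D4:**
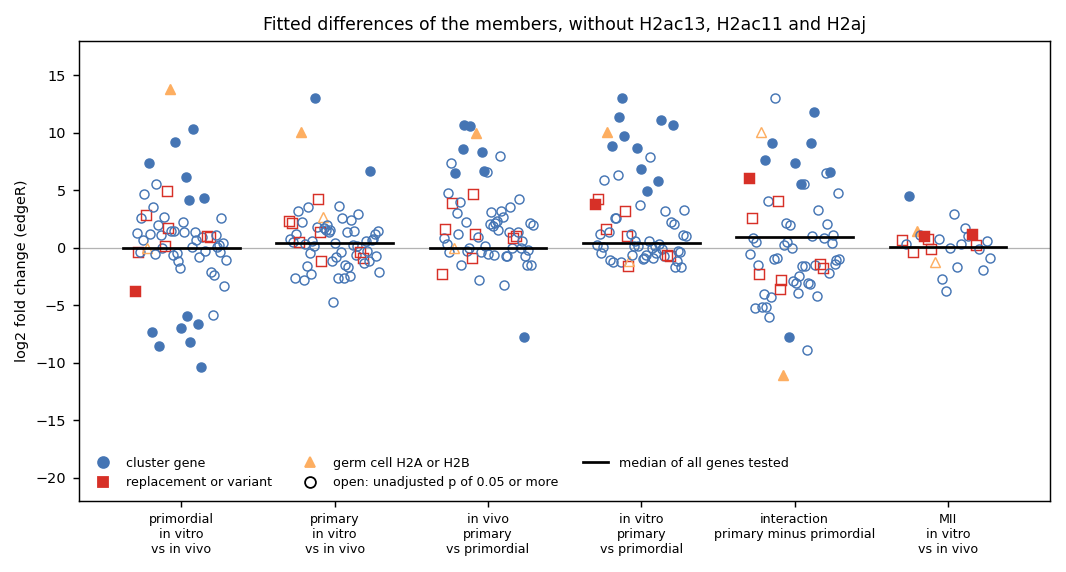
Log2 fold changes fitted by edgeR (y axis) for the members tested in each of the 6 comparisons (x axis; the first group named is the numerator), without *H2ac13*, *H2ac11*, *H2aj* and the antisense RNA. Filled symbols have an unadjusted p under 0.05, black lines are the median of all genes tested, and none of the points shown passed the call threshold.

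The fitted differences were large and their errors as well. The biological coefficient of variation was 2.02 in the LCM fit and 0.726 in the MII fit. The median log2 fold change of the 62 members was 0.53 for primordial and 0.53 for primary *in vitro* against *in vivo*, beside 0.00 and 0.44 over all genes. Between the stages it was 1.28 *in vivo* and 1.02 *in vitro*, beside 0.00 and 0.44. For the difference of the culture effects between the stages it was -0.74, beside 0.91 over all genes. Over the 25 members tested in MII oocytes it was 0.36, beside 0.04.

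In MII oocytes histone reads were concentrated in few genes. *H1f8*, at chr6:115944938-115950236, had 221156, 96839 and 115190 counts *in vivo* and 115896, 98639 and 147598 counts *in vitro*, 73.3% to 84.4% of all histone counts of a library, and it led in all 6. Its level was 16641 ± 8485 CPM *in vivo* and 13103 ± 3621 CPM *in vitro* (SD, n = 3 each), which overlap (log2 fold change -0.34, SE 0.43, edgeR's adjusted p = 0.843). In the LCM libraries *H1f8* had 0 to 125 counts (median 1.69 TPM, against 27692 TPM in MII). *H3f3b* was second, with 38900, 15723 and 28046 counts *in vivo* and 30773, 32923 and 37922 *in vitro* (log2 fold change 0.21, SE 0.39, edgeR's adjusted p = 0.903).

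Far below these came *H1f0* (median 114 TPM), *H2az1* (92.6 TPM), *H2ac1* (81.4 TPM) and *H2ax* (61.6 TPM), whose ranges overlapped. *H3f3a* had 32.3, *H2aj* 21.8 and *H2bc4* 14.2 TPM, and *H2az2* ranged from 11.2 to 36.1 TPM. These 10 genes were the members above the floor in all 6 MII libraries, and *H2bc4* was the only cluster gene among them. Of the 56 cluster genes, 29 had no read in any MII library, and the median MII level over all 56 was 0 TPM. *H3c14*, an H3 gene of the chromosome 3 cluster chosen after its values were seen, was an exception in the other direction. It had 56, 0 and 16 counts *in vivo* and 90, 75 and 84 counts *in vitro* in MII oocytes and 1 count in all 12 LCM libraries together.

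**Figure D5:**
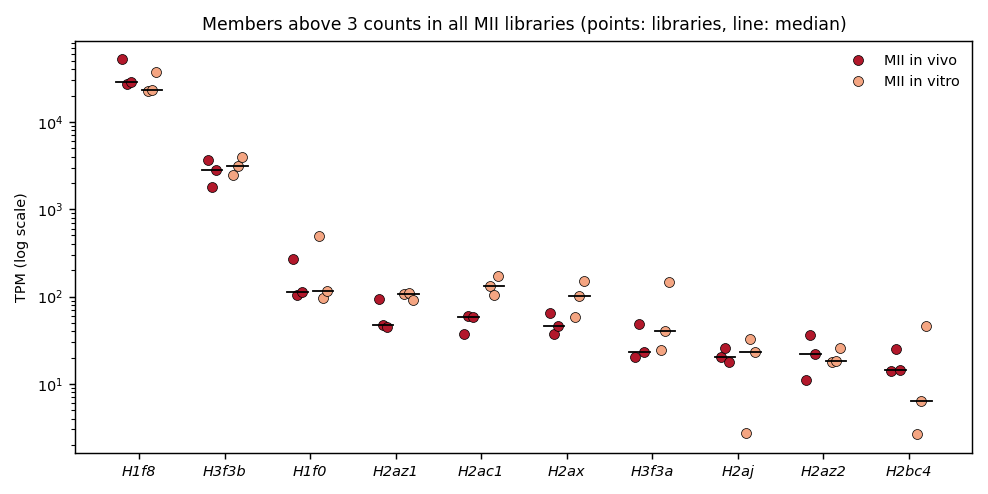
TPM (y axis, log scale) of the 10 members above 3 counts in all 6 MII libraries (x axis), with *in vivo* libraries in dark red, *in vitro* libraries in light red and medians as black lines. *H1f8* (22840 to 51820 TPM) and *H3f3b* (1772 to 3908 TPM) stand above the other 8, and the *in vitro* points of *H2ac1* lie above all its *in vivo* points.

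Between the MII groups 0.350% of 17144 genes were called by edgeR and 0 of the 25 members tested besides *H2aj*, with 4 of 25 (16%) at an unadjusted p under 0.05 against 10.2% of all genes. DESeq2 called 0 of the 21 members with an adjusted p, against 2.28% of all genes. *H2ac1*, an H2A gene known from the testis, at chr13:23934462-23934851, had 52, 69 and 76 counts *in vivo* and 217, 142 and 217 counts *in vitro*. The *in vitro* libraries were all higher, with 21.0 ± 6.55 CPM against 7.44 ± 1.09 CPM (SD, n = 3 each; log2 fold change 1.49, SE 0.50, edgeR's adjusted p = 0.367). In the LCM libraries *H2ac1* had 561 counts in primary *in vitro* replicate 3, 1 count in replicate 1 of that group and 0 in the other 10. *H2ax* had 316, 153 and 213 counts *in vivo* and 345, 492 and 674 counts *in vitro*, or 26.0 ± 10.3 against 54.0 ± 18.9 CPM (log2 fold change 1.05, SE 0.42, edgeR's adjusted p = 0.440). *H1f2*, a linker H1 cluster gene, had 0, 2 and 0 counts *in vivo* and 33, 11 and 11 *in vitro*, at least 5.94-fold higher against the floor of 3 counts in each *in vivo* library (edgeR's adjusted p = 0.454). All *in vitro* libraries were above all *in vivo* libraries for 4 of the 25 members and below them for 2 (24.0% together), against 9.37% and 6.81% of all genes. The 2 lower members, *H2bu2* and *H2bc12*, were named after their values were seen. With CPM by library total 5 members were above and 0 below, and with TPM 3 were above and 0 below.

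Genes that act on histones were counted from fixed lists. Of 16 replication phase genes (such as *Pcna*, *Mcm2* and *Mki67*), 25 histone chaperones and 15 genes of histone mRNA processing, 0 were called by edgeR in any LCM comparison. At an unadjusted p under 0.05 there were 0 to 2 genes of each list in these comparisons, against 9.66% to 11.7% of all genes. The replication phase genes summed to 561 to 720 TPM in the primary *in vitro* libraries and to 148 to 510 TPM in the other LCM libraries, so all 3 primary *in vitro* libraries lay above the other 9. Of the 16 genes only *Top2a*, a DNA topoisomerase, had TPM values that separated these libraries from the other 9, with 9532, 10189 and 10242 counts in them and 1 to 2509 counts in the others. Without *Top2a* the sums overlapped, at 408 to 579 TPM against 147 to 496 TPM. They summed to 1023 to 1930 TPM in the MII libraries, where cluster histone genes were lowest. In the MII comparison 5 of 25 chaperones, 1 of 15 processing genes and 1 of 16 replication phase genes were at an unadjusted p under 0.05, against 10.2% of all genes. Called there were 0 chaperones, 0 replication phase genes and 1 processing gene, *Upf1*, an RNA helicase that takes part in the decay of histone mRNA, with a log2 fold change of -2.02 (SE 0.34, edgeR's adjusted p = 0.0207) *in vitro*. *Slbp*, whose product binds the stem-loop, had a log2 difference of 0.84 with an SE of 0.47 (edgeR's adjusted p = 0.512). Of 5 variant histones outside the symbol rule, 3 were found. *Cenpa*, the centromeric H3 variant, had 968 to 1451 counts in MII libraries and 0 to 24 counts in LCM libraries, and *Macroh2a1*, an H2A variant with a macro domain, had 30 to 169 and 1 to 21918 counts.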

How the data were processed

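Raw gene counts were deposited that the authors made with featureCounts from reads trimmed by Trim Galore 0.4.1 and placed on mm10 by TopHat2. The authors also deposited TPM values. Strand and the treatment of reads that map to several places are not given in the sources used here. Reads were not processed again, and all value columns were used. Libraries were grouped by their labels, 3 in each of 6 groups. The count test was edgeR 4.0.16 under R 4.3.3 (TMM, genes with at least 10 counts in total, glmQLFit with robust = TRUE, glmQLFTest), 1 model for the 12 LCM libraries and 1 for the 6 MII libraries. Calls needed an adjusted p (Benjamini-Hochberg) under 0.05 and a 2-fold change. Means ± SD are given in CPM scaled by TMM. The SE of a log2 fold change was derived from edgeR's test, as the absolute log2 fold change divided by the square root of the F statistic.

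The members, lists, classes and tests were chosen with earlier results of these data known. Named members were *H2ac13*, *H2ac11* and *H2aj*, members called, the 6 with the highest median TPM in LCM and in MII libraries, the 3 with the smallest p in each comparison, and 8 single-copy or variant genes. Other members whose values are given, such as *H2bc6*, *H2ac8* and *H3c6*, were chosen after their values were seen. Positions, transcripts and overlaps come from GENCODE on GRCm38. The stem-loop and window searches and the other scalings of groups that do not overlap were added after seeing the data. Alternatives were DESeq2 1.42.0, limma 3.58.1 on log2(TPM + 1) and log2(TPM + 0.1), other scalings and filters, a replicate block, other sets of libraries, and leaving out each library.

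Replicate numbers come from the labels, which do not say what they mark.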

Additional observations from a re-analysis of the deposited data

Results flagged for a closer look

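*H3c2*, an H3 gene of the chromosome 13 cluster, was picked by searching the members for groups that lie apart in opposite directions. How often such a pattern occurs over all genes was not counted. With culture, the counts of *H3c2* went opposite ways at the 2 follicle stages. It had 22569, 1110 and 4933 counts in primordial *in vivo* and 1, 333 and 0 in primordial *in vitro* libraries, and 1766, 732 and 12 counts in primary *in vivo* but 5965, 8715 and 4296 in primary *in vitro* libraries. Every *in vitro* library was lower at the primordial and higher at the primary stage. The difference of the log2 effects was 9.07 (SE 3.43), with an adjusted p of 0.257 in edgeR's test of that difference. Neither edgeR nor DESeq2 called *H3c2* there. *H3c2* shared 56.6% of its windows of 100 bases with other genes. Groups of 3 are too small for a test of single outlying libraries.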

How the results depend on the processing

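Limits are the 3 libraries in each group, the spread between LCM replicates, unknown strand and multi-mapping settings, and a floor of 3 counts. Without *H2ac13*, *H2ac11* and *H2aj*, members called stayed at 0 in the 6 comparisons under every alternative run except DESeq2, which called 7 (primordial), 6 (stages *in vivo*), 6 (stages *in vitro*) and 1 (difference of the culture effects).

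All genes called numbered 5, 0, 8, 0, 16 and 60 (primordial, primary, stages *in vivo*, stages *in vitro*, difference of the culture effects, MII). DESeq2 called 812, 244, 561, 454, 558 and 337. No filter gave 0, 0 and 1 in the first, the third and the fifth and 263 in MII; at least 50 counts, filterByExpr and both limma settings gave 0 in the first, the third and the fifth; all 18 libraries in 1 model gave 0 in these and 0 in MII. Fitting only the compared groups gave 9, 5 and 3 in the first 3, DESeq2's size factors gave 1 and no robust estimation 4 at the primary stage.

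With a replicate block, genes called were 1, 0 and 0 in the first, the third and the fifth comparison and 85 in MII. Deviations of same-numbered libraries from their group means correlated at -0.07 to 0.09 (LCM) and -0.02 to 0.02 (MII). Libraries with different numbers gave -0.08 to 0.09 (LCM) and -0.04 to 0.03 (MII). Given the spread between LCM replicates, these values do not settle whether the numbers pair the libraries.

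Leaving out 1 library at a time gave 0 to 3, 0 to 1, 0 to 11, 0 to 0, 0 to 20 and 11 to 378 genes called, in the same order. Without MII *in vivo* replicate 1, 378 genes were called, and without primary *in vivo* replicate 1, 11 were called between the stages *in vivo*. The log2 difference of *H2bc14* at the primordial stage was 0.49 without primordial *in vitro* replicate 1. Fold changes were followed under the alternatives only for the members with the smallest p in each comparison, without *H2ac13*, *H2ac11* and *H2aj*. None of these changed direction in that comparison. The other named members were not followed. Among the members that DESeq2 placed past the threshold were *H2bc14* (primordial and stages *in vivo*) and *H2bc3* (primordial and stages *in vitro*). *H2bc15* (stages *in vivo* and *in vitro*) and *H3c2* (primordial) were others. The cause was not tested.

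By CPM in place of TPM, cluster genes held a median of 1.29% (LCM) and 0.00229% (MII). A median of 20 members per MII library was above 3 counts, against 25.5 at 1 count or more and 16 above 10 counts.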
